A study of Homo sapiens with 6 samples.

Results

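Open chromatin was described around MYC on chromosome 8, from CCAT1 through POU5F1B, MYC and PVT1 into the gene-poor stretch beyond them. The members were all ATAC-seq peaks of 6 deposited lists whose summit, the position of highest signal, lay between 127.5 and 130.5 Mb (hg19, as all positions here). These were 340 of 212831 peaks, with 66, 73 and 44 in NuMA-depleted replicates 1, 2 and 3 and 53, 57 and 47 in wild-type replicates 1, 2 and 3. Peaks that overlapped by at least 1 bp were merged into 96 regions of 58926 in all.

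The libraries came from HCT116, an established human colon cancer line, with 3 labelled as NuMA depletion (below, the depleted libraries) and 3 as wild type. ATAC-seq uses a transposase that inserts sequencing adapters into open DNA. NuMA, a large coiled-coil protein, belongs to the nuclear matrix between divisions and focuses spindle microtubules in mitosis. The question put by the series is whether chromatin structure depends on it. The labels give neither the agent nor the duration of depletion, and do not say whether replicates came from separate cultures, so the spread between libraries may be technical.

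MYC encodes a transcription factor that drives growth and division, and in colon cancer cells its transcription responds to Wnt signalling through beta-catenin and TCF factors. Few protein-coding genes surround it. Enhancers spread over the flanking desert contact its promoter, and several long noncoding RNAs, among them CCAT1 and PVT1, are transcribed from that desert. POU5F1B is a retrogene related to the pluripotency factor OCT4. HCT116 also carries extra material of the long arm of chromosome 8 as part of its karyotype. In the RefSeq gene table (assembly GRCh38.p14, used for names and order only) all 4 genes were found. The order runs PCAT1, CASC19, CCAT1, CASC21, CASC8, POU5F1B, CASC11, MYC, PVT1, LINC00824, LINC00976, LINC00977 and CCDC26, with further noncoding RNA genes between them. The placing of the hg19 landmarks used below is rounded: MYC at 128.748 to 128.754 Mb, PVT1 at 128.81 to 129.11 Mb, CCAT1 near 128.2 Mb and POU5F1B near 128.43 Mb.

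The window was chosen because its bin from 129 to 130 Mb seemed to hold more peaks in NuMA-depleted libraries. Differences between the groups are therefore described, not tested. At the window's start, the region just inside (127500476 to 127501074) was called in 4 libraries with folds of 5.81 to 8.49, and the one just outside (127466131 to 127467086) in 5 with folds of 4.44 to 10.2. At its end, the region just inside (130471964 to 130472537) was called in 4 libraries with folds of 5.08 to 8.66, and the one just outside (130547945 to 130548626) in 6 with folds of 8.80 to 14.5. Fold here is the authors' enrichment of a peak over its local background, a value of its own list.

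The lists differed in length and depth. NuMA-depleted replicate 3 had the fewest peaks of all (21783) and replicate 2 the most (45892). Relative depth, recovered from the peaks on a scale where the 6 libraries average 1, was 1.07, 1.21 and 1.11 in NuMA-depleted replicates 1 to 3. In wild-type replicates 1 to 3 it was 0.975, 0.869 and 0.762, so depth separated the groups. Absence from a list means only that no peak passed the threshold in that library, and such a site may still be open. In bulk libraries a site open in fewer cells and a site cut less often per cell cannot be told apart.

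**Figure D1:**
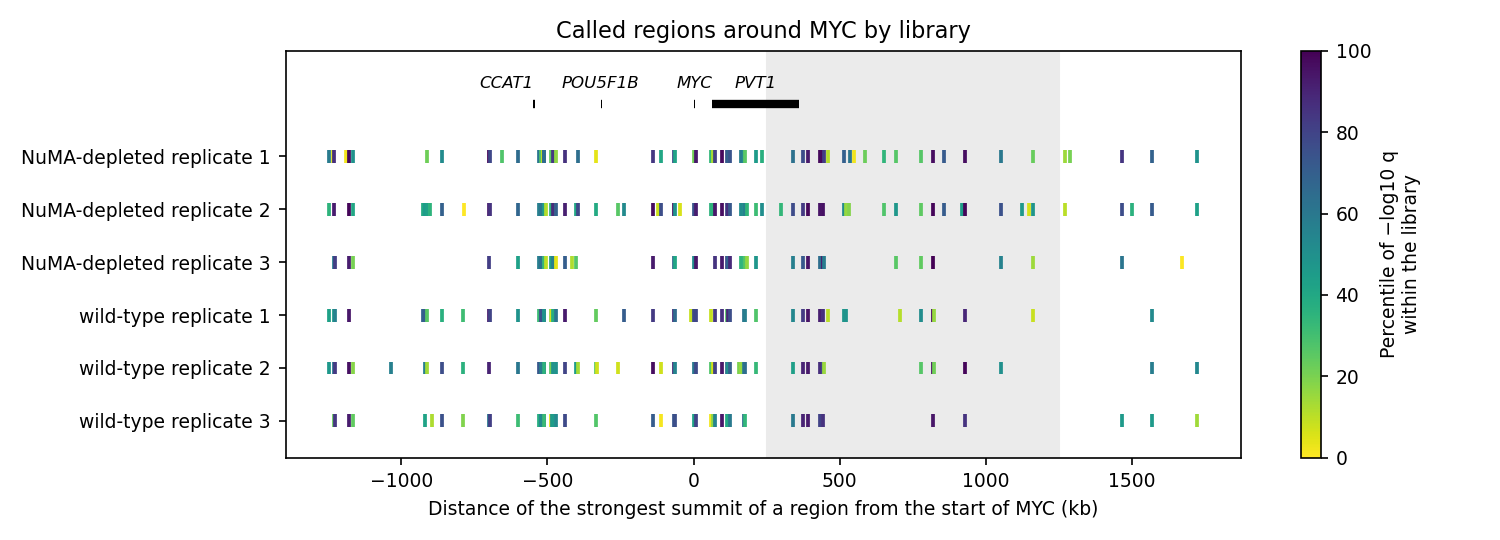
Regions called around MYC, with 1 row per library and 1 tick per region, placed by the distance of its strongest summit from the start of MYC in kb. Colour gives the percentile of −log10 q within the library's own list, the grey band marks the bin from 129 to 130 Mb, and black bars mark the 4 genes. Ticks crowd around CCAT1, MYC and PVT1 in each library and are sparse around POU5F1B. They thin out to the right, where NuMA-depleted replicates 1 and 2 have the most.

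Open regions were unevenly spread over the window. The MYC segment, which runs from 10 kb before the gene to 10 kb after it, held 8.33 peaks per 100 kb and library. CCAT1 followed with 4.65, PVT1 with 3.80, and the stretch upstream of MYC with 1.92. The arm upstream of CCAT1 held 1.67, the near part of the downstream desert (129.12 to 130 Mb) 1.42, POU5F1B 1.32, and the far part beyond 130 Mb 0.60. No peak was called in the 36 kb between the MYC and PVT1 segments. The 1 Mb bin from 128 to 129 Mb holds CCAT1, POU5F1B, MYC and the first part of PVT1, which ends at 129.11 Mb. It had a mean of 31.8 peaks, at percentile 92.8 of the 2022 bins of the genome that averaged at least 5 peaks. The bin from 129 to 130 Mb, with 13.7, lay below the median bin of 14.8.

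How often a region was called in all libraries also varied along the window. Of the 96 regions, 29 (30.2%) were called in all 6 libraries and 26 (27.1%) in 1 library, against 28.9% and 25.1% of all merged regions. The 29 included 8 of the 12 regions of the CCAT1 segment, 8 of the 17 of PVT1, 2 of the 3 of MYC and 3 of the 6 between POU5F1B and MYC. They included 5 of the 25 regions of the near desert, 3 of the 19 upstream of CCAT1, and none of the 7 of POU5F1B or of the 7 of the far desert. The longest gap between neighbouring regions called in all 6 libraries spanned 476 kb, from 127571111 to 128047350, in the upstream arm. The last such region ended at 129567865, and no region from there to the end of the window was called in all 6.

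At the start of MYC, 1 region (128747249 to 128748788, 1540 bp) was called in all 6 libraries, and it ranked lower by −log10 q than by its pileup. The pileup, the number of fragments over the summit as recovered from fold and p, was 29, 63 and 31 in NuMA-depleted replicates 1 to 3 and 43, 38 and 31 in wild-type replicates 1 to 3. The groups overlapped. The local background that the caller set against it was 7.22, 11.9 and 6.22 fragments in the NuMA-depleted and 6.83, 6.15 and 6.36 in the wild-type libraries. Genome-wide it was 1.04, 1.44 and 1.13 in the NuMA-depleted and 0.897, 0.748 and 0.767 in the wild-type libraries. Over the peaks of the MYC segment the local background had a median of 6.96 times the genome-wide value, the highest of the segments. The next was 4.28 times, upstream of MYC. The fold at the start of MYC was 3.65, 4.97 and 4.43 in the depleted and 5.62, 5.45 and 4.35 in the wild-type libraries. Ranked by −log10 q among the 17009 regions called in all 6 libraries, a set that is the same for every library, it stood at percentiles 3.38, 40.2 and 41.7 in the depleted and 58.4, 31.6 and 17.4 in the wild-type libraries. By pileup its percentiles were 37.7, 81.9 and 80.8 against 88.5, 70.8 and 63.6, above those by −log10 q in each library. The summits lay up to 603 bp apart, so the libraries did not place the strongest point of this region alike. A further region of the segment, at 128737908 to 128738180, was called only in wild-type replicate 1, with a fold of 4.59.

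Just past the end of MYC, a region (128754369 to 128755873, 1505 bp) stood higher in the NuMA-depleted libraries. A Wnt-responsive enhancer has been described downstream of MYC in colorectal cancer cells, and whether this region is that element was not tested. Its strongest summit lay 1.38 kb beyond the rounded end of the gene, and the summits of the 6 libraries fell within 105 bp. The pileup was 55, 73 and 45 in the depleted and 40, 44 and 40 in the wild-type libraries, not scaled for depth. The fold was 8.76, 7.19 and 7.29 in the depleted and 6.14, 6.61 and 6.47 in the wild-type libraries. Its rank among the shared regions was 86.5, 78.6 and 92.4 against 60.1, 56.1 and 63.7, a mean of 85.8 ± 6.92 against 59.9 ± 3.81 (SD, n = 3 each). Every NuMA-depleted library ranked it above every wild-type library. Local background was 5.39, 9.30 and 5.31 fragments in the NuMA-depleted and 5.68, 5.81 and 5.34 in the wild-type libraries, which overlap.

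**Figure D2:**
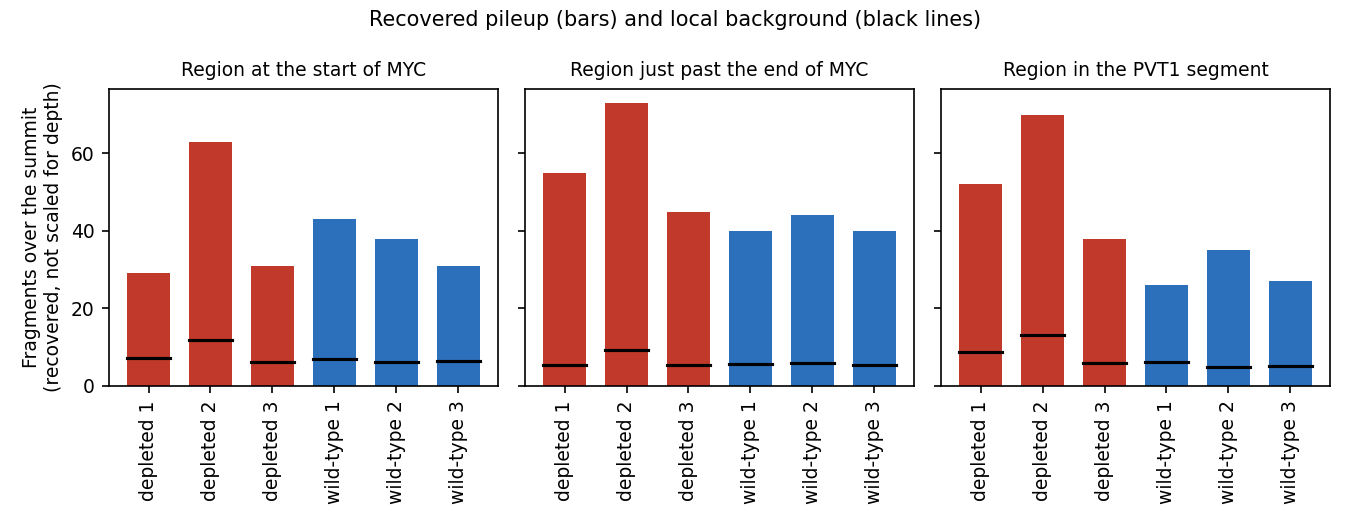
Recovered pileup at the summit (bars, in fragments, not scaled for depth) and local background (black lines) in each library, for the region at the start of MYC, the region just past its end and a region in the PVT1 segment at 128863475 to 128864606. NuMA-depleted and wild-type bars overlap at the start of MYC, and at the other 2 regions each NuMA-depleted bar is above each wild-type bar. Relative depth was also higher in each NuMA-depleted library (1.07, 1.21 and 1.11) than in each wild-type library (0.975, 0.869 and 0.762). The bars alone therefore cannot show a difference in openness between the groups.

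In the CCAT1 segment the number of peaks hardly varied, with 10, 10 and 9 in the depleted and 10, 10 and 11 in the wild-type libraries. The segment covers the distal enhancer cluster from which the colon cancer associated transcript CCAT1 is read. Its strongest shared region (the one whose lowest −log10 q was highest) lay at 128306357 to 128307523 and averaged a fold of 8.35 ± 0.971 (SD, n = 6). There the groups' ranks overlapped, at 70.7, 77.3 and 63.6 in the depleted and 85.2, 59.9 and 60.5 in the wild-type libraries. A pair of neighbours behaved in opposite ways. The region at 128264315 to 128264915 was called in all 3 wild-type and no NuMA-depleted library, with folds of 3.62, 4.52 and 6.03. The next region, 549 bp further on (128265465 to 128266304), was called in all 6. Its ranks were 67.2, 68.3 and 47.5 in the depleted and 12.2, 18.6 and 20.5 in the wild-type libraries, and its pileups 39, 53 and 22 against 19, 23 and 21. The wild-type-only neighbour was weak in its lists, at percentiles 4.83, 19.5 and 48.2 of −log10 q. This second region was singled out after its values were seen, as were the other regions named below for ranks that separate the groups and those named at POU5F1B and at the start of PVT1.

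POU5F1B was the only gene of the 4 whose segment held no region called in all 6 libraries. Libraries held between 1 and 5 peaks there, at 2, 5 and 2 in the depleted and 2, 5 and 1 in the wild-type libraries. The region called most often, at 128413042 to 128414383, was in every list but that of NuMA-depleted replicate 3. Its folds ranged from 4.01 to 5.66, and its percentile within a list from 4.02 to 39.3, so these calls were among the weaker ones of their lists. Between POU5F1B and MYC the strongest shared region lay at 128608204 to 128608959, with its summit at -139 kb from the start of MYC. Its fold was 9.47 ± 1.61 (SD, n = 6), from 8.18 to 12.3.

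PVT1 held 14, 15 and 11 peaks in the depleted and 10, 13 and 10 in the wild-type libraries, which overlap. PVT1 is a long noncoding RNA gene whose body carries enhancers and whose promoter is known to compete with that of MYC for them. The region at its start (128806719 to 128807707) was called in every library but NuMA-depleted replicate 3, with folds of 5.88 and 5.18 in NuMA-depleted replicates 1 and 2 and 3.95, 5.63 and 3.76 in wild-type libraries. Its percentile within those lists ran from 1.96 to 35.7. The strongest shared region of PVT1, at 128843389 to 128844219, averaged a fold of 9.30 ± 1.12 (SD, n = 6). Its ranks were 95.3, 90.5 and 91.3 in the depleted and 72.9, 86.6 and 88.8 in the wild-type libraries. At 128863475 to 128864606 ranks were 51.5, 49.7 and 73.1 against 5.96, 33.8 and 15.9, and pileups 52, 70 and 38 against 26, 35 and 27. The reverse order stood at 128919796 to 128920703, with ranks of 22.7, 12.8 and 24.6 in the depleted and 34.7, 27.2 and 44.2 in the wild-type libraries. Near the end of PVT1 lay the widest region of the window, 1852 bp at 129088853 to 129090704. Each list held it as a peak of 1249 to 1789 bp, with folds of 5.66 to 7.03.

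**Figure D3:**
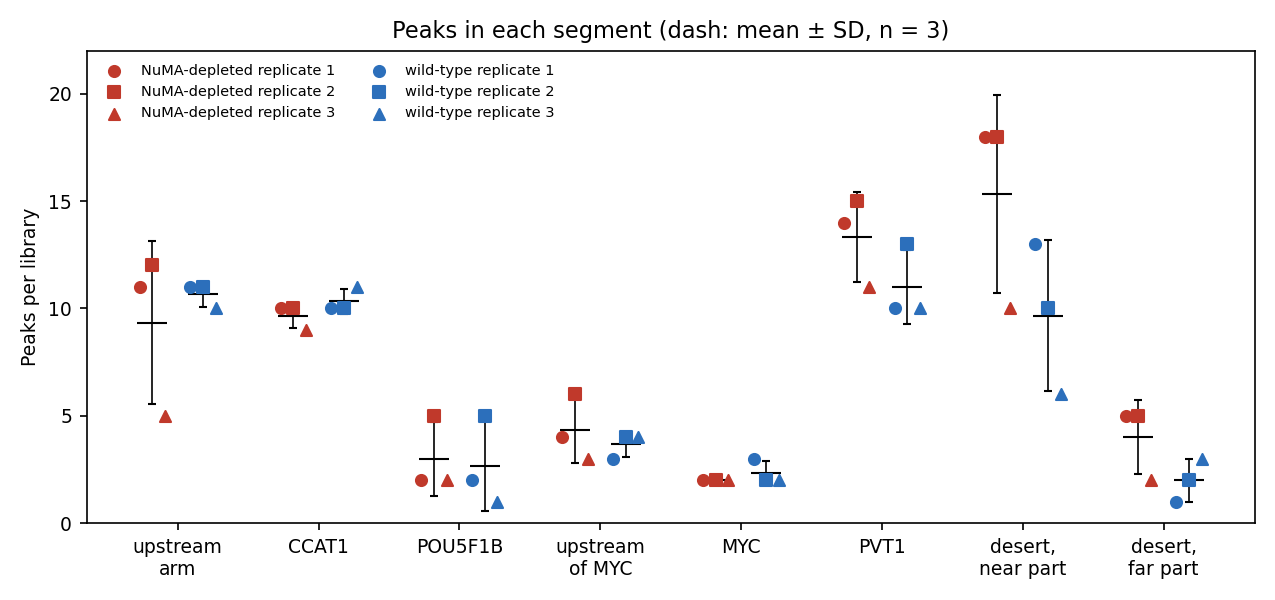
Peaks per library in 8 segments of the window, from the arm upstream of CCAT1 to the far part of the desert. Points are libraries, and dashes with bars are means ± SD (n = 3). The groups overlap in each segment, and the near desert shows the widest spread, from 6 to 18 peaks.

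In the downstream desert the number of peaks varied most between libraries. The near part held 18, 18 and 10 peaks in the depleted and 13, 10 and 6 in the wild-type libraries, and the far part 5, 5 and 2 against 1, 2 and 3. In both parts the groups overlapped through NuMA-depleted replicate 3. The strongest region of the window that all 6 libraries called lay here, at 129567034 to 129567865, 819 kb from the start of MYC. Its pileup was 71, 103 and 70 in the depleted and 64, 59 and 49 in the wild-type libraries, and its rank 93.0 or higher in every library but wild-type replicate 3, where it was 89.2. The next strongest shared region of the near desert lay at 129139586 to 129140559 and was also singled out after its values were seen. Its ranks of 85.1, 94.8 and 93.4 in the depleted and 89.3, 85.5 and 86.4 in the wild-type libraries overlap. Another strong region, 850 bp wide, lay at 129188783 to 129189632. It had ranks of 98.1, 88.3 and 93.1 in NuMA-depleted against 73.6, 60.7 and 74.2 in wild-type libraries. Its pileups were 70, 77 and 39 against 32, 33 and 31. By contrast, at 129121032 to 129121721, just beyond PVT1, ranks were 54.6, 57.3 and 65.9 in the depleted and 66.6, 79.1 and 82.2 in the wild-type libraries.

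The highest fold of the window belonged to a desert region that 1 library lacked. At 129678142 to 129678870 the fold was 13.2 and 12.7 in NuMA-depleted replicates 1 and 2 and 10.9, 16.4 and 9.89 in wild-type replicates 1 to 3. Its percentile within those 5 lists ran from 85.2 to 98.8. NuMA-depleted replicate 3 had no peak there, although it had 44 peaks in the window. In the upstream arm the strongest shared region lay at 127569935 to 127571110, with folds of 7.38 to 9.41 and overlapping ranks, at 95.4, 96.8 and 89.9 in the depleted and 87.7, 90.7 and 85.7 in the wild-type libraries. A call missing from other libraries was seen in that arm at 127522605 to 127523008. That region was called in NuMA-depleted replicate 3 (fold 6.65) and in the 3 wild-type libraries (5.73 to 8.35), and was missing from the 2 NuMA-depleted libraries with the longer lists. A neighbour 3492 bp before it, at 127518228 to 127519112, was called in all 6 libraries, with ranks of 72.3, 80.2 and 47.5 in the depleted and 18.1, 31.8 and 6.09 in the wild-type libraries. These 3 regions were also singled out after their values were seen.

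The bin from 129 to 130 Mb, on which the window was in part chosen, held 19, 20 and 11 peaks in the depleted and 14, 11 and 7 in the wild-type libraries. These numbers overlap. As a share of the library's peaks it held 0.0494%, 0.0436% and 0.0505% against 0.0394%, 0.0284% and 0.0215%, which do not overlap. Shares that were higher in all 3 NuMA-depleted than in all 3 wild-type libraries were found in 6.08% of the 2022 bins, and numbers in 0.0495%. The reverse held for shares in 5.49% and for numbers in 0.0989% of the bins. In a limma fit of log2 shares over these bins, in which 0% passed an adjusted p of 0.05 (114 bins had an unadjusted p below 0.05), the bin differed by 0.70 (SE 0.191). For the bins from 127, 128 and 130 Mb the log2 difference in share was -0.05 (SE 0.167), 0.17 (SE 0.133) and 0.20 (SE 0.134). With the same number of peaks from each library, the 21783 strongest, the difference at 129 to 130 Mb was 0.39 (SE 0.161).

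Cut into stretches of 250 kb, the bin had groups that did not overlap in 1 of 4, the last. Of 7028 such stretches of the genome with a mean of at least 1.25 peaks, 0.569% were higher in all 3 depleted than in all 3 wild-type libraries and 0.854% lower. As the bin was chosen for this difference, nothing is read from that. The first stretch, which holds the end of PVT1, had 7, 6 and 6 peaks in the depleted and 6, 6 and 5 in the wild-type libraries. The second had 6, 5 and 1 against 3, 0 and 0, the third 4, 5 and 2 against 4, 4 and 2, and the fourth 2, 4 and 2 against 1, 1 and 0. Each of the 6 lists held the same 6 shared regions of the bin. Peaks in regions that no wild-type library called numbered 6, 8 and 1 in NuMA-depleted replicates 1 to 3, at median percentiles of 30.4, 39.2 and 26.1 of their lists. Of these 11 regions, 8 were called in a single library. They made up 40.7% of the 27 regions of the bin, against 24.6% in the window outside it and 19.4% of all merged regions. The reverse, a call in some wild-type and no depleted library, was made at 2 regions of the bin, with 2, 1 and 0 peaks in wild-type replicates 1 to 3. That was 7.41%, against 10.1% in the window outside the bin and 13.6% of all. As the bin was chosen for more peaks in the depleted libraries, nothing is read from its shares. The shorter list of NuMA-depleted replicate 3 and the lower depth of the wild-type libraries move with these numbers, and their part was not tested.

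**Figure D4:**
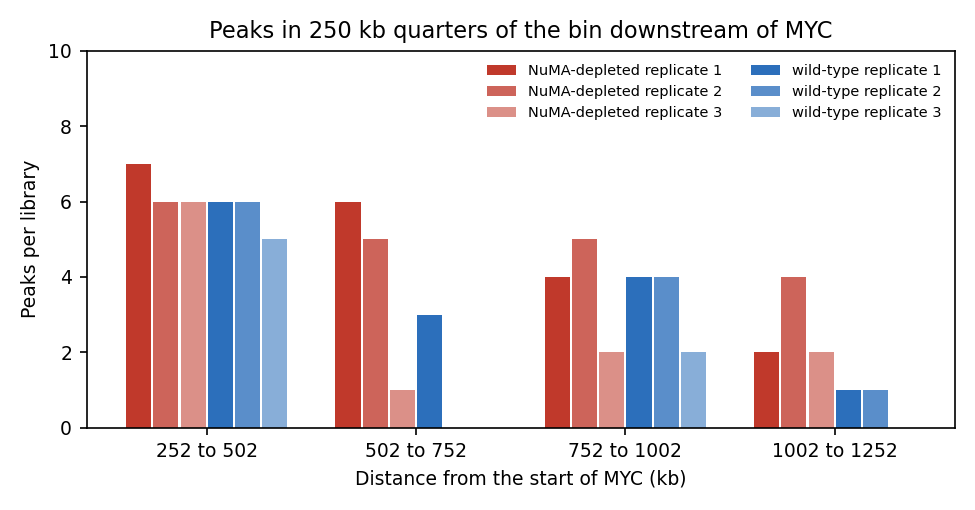
Peaks per library in 4 stretches of 250 kb of the bin from 129 to 130 Mb, by distance from the start of MYC in kb. Red bars are NuMA-depleted and blue bars wild-type libraries. The first stretch holds 5 to 7 peaks in each library, and the second 6 and 5 in NuMA-depleted replicates 1 and 2 and 3 or fewer in the others.

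Few regions of the window were exclusive to a group. Called in all 3 NuMA-depleted and no wild-type library was 1 region, as were 0.625% of all merged regions. It lay in the desert at 129440103 to 129440877, with folds of 6.10, 6.79 and 5.36, pileups of 15, 24 and 14 and percentiles of 26.4, 47.1 and 26.1 within its lists. Called in all 3 wild-type and no NuMA-depleted library were 2 regions (2.08%, against 0.592% of all). Besides the one in the CCAT1 segment, this was 127959484 to 127959891 in the upstream arm, with folds of 6.19, 7.11 and 5.68 and pileups of 13, 15 and 11. Calls in some NuMA-depleted and no wild-type library were made at 28 regions (29.2%, against 19.4% of all), and the reverse at 9 (9.38%, against 13.6%). Calls in at least 2 NuMA-depleted and no wild-type library were made at 8 regions (8.33%, against 5.04% of all), and in at least 2 wild-type and no NuMA-depleted library at 3 (3.13%, against 2.85%). Both sets of counts include the bin chosen for more NuMA-depleted peaks. Outside it the 8 and 3 became 5 (7.25%) and 2 (2.90%). In the bin from 129 to 130 Mb the 8 included, besides the region above, 129400674 to 129401387 with folds of 6.57 and 5.40 and 129603348 to 129603926 with folds of 9.45 and 8.27, both in NuMA-depleted replicates 1 and 2 only.

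Among the 29 shared regions, ranks leaned to the NuMA-depleted libraries. These include the 6 shared regions of the bin chosen for more NuMA-depleted peaks, and the lean without them was not computed. Regions of the same locus are not replicates, so the counts below are a description. The difference in mean rank among the shared regions was positive in 20 of the 29 (69.0%), with a median of 8.12 percentile points, against 49.0% and -0.26 points over all 17009. In 6 regions (20.7%) every NuMA-depleted library ranked the region above every wild-type library, as in 7.61% of all shared regions. In 2 (6.90%) the order was reversed, as in 7.11% of all. With 1 library dropped the 6 became 7 to 10, against 12.31% to 13.09% of all, highest without wild-type replicate 2. The 2 became 2 to 4, against 11.89% to 12.98% of all. Both counts loosen by construction when a library is left out, so the rise does not strengthen the lean. The 6 lay in the upstream arm, the CCAT1 segment, past the end of MYC, at 2 places in PVT1 and in the near desert, and all are described above, as are the 2. Ranked by pileup, 8 regions were higher (8.76% of all) and 2 lower (8.19% of all), and by fold 4 were higher (6.75% of all) and 0 lower (6.21% of all). Within each library's own list the counts were 4 higher (6.03% of all) and 2 lower (5.69% of all), though ranks in lists of unlike length show no change. The median difference over the 29 was 7.59 points by pileup, 4.52 within own lists and 1.501 by fold. Over all shared regions these medians were -0.33, -0.92 and -0.0402 points. By this median the lean was largest by −log10 q and smallest by fold. By number of regions it was largest by pileup, with 8 higher against 6 by −log10 q. By pileup 21 of the 29 differences were positive, against 20 by −log10 q.

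**Figure D5:**
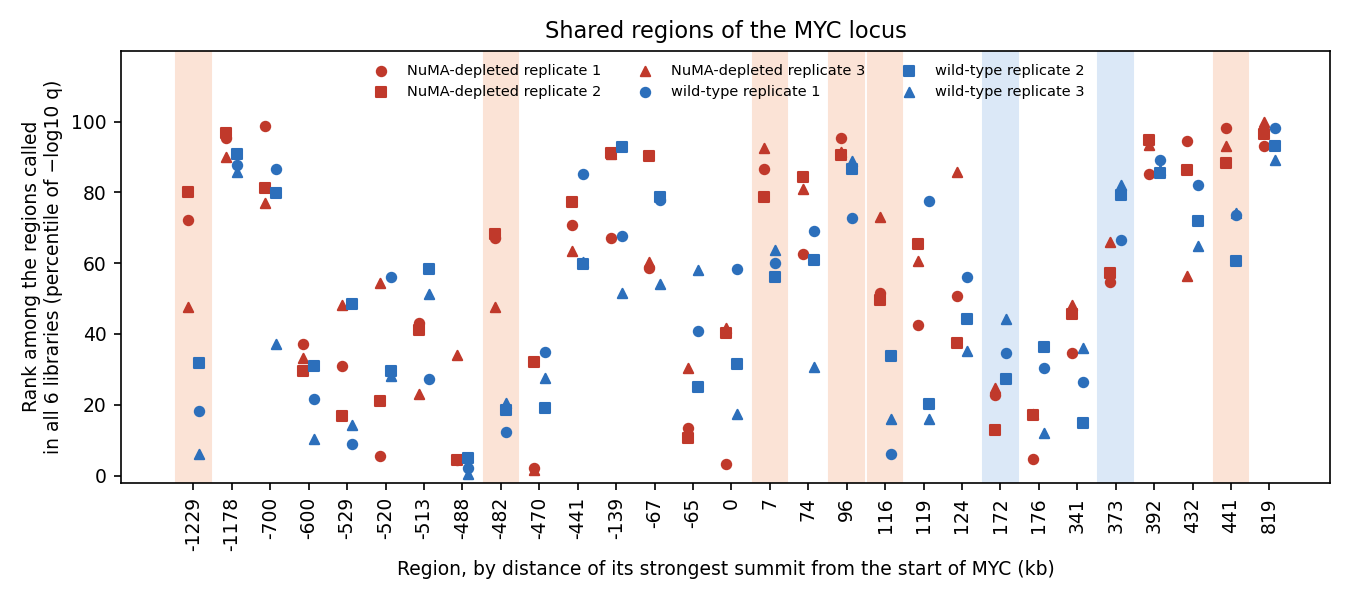
Rank of the 29 regions called in all 6 libraries, as the percentile of −log10 q among all such regions of the genome, with regions in order along the chromosome. Red points are NuMA-depleted and blue points wild-type libraries; orange bands mark the 6 regions ranked higher in each NuMA-depleted library and blue bands the 2 ranked lower.

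The lean was carried in part by 1 library. The median rank of the 29 regions was 54.6, 65.5 and 60.3 in NuMA-depleted replicates 1 to 3 and 58.4, 48.5 and 37.1 in wild-type replicates 1 to 3, which overlap. Without wild-type replicate 3, the shallowest library, the median difference by −log10 q was 3.36 points. Without each of the others it ran from 5.50 to 10.3. Over the peaks of the window, local background had a median of 2.85, 2.42 and 2.84 times the genome-wide value in the depleted and 3.15, 3.45 and 3.89 times in the wild-type libraries, so it separated the groups too. Over all peaks it was 2.26, 2.14 and 2.10 against 2.31, 2.52 and 2.58. Its part in the ranks, and that of depth, was not tested.

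Over the window as a whole the groups overlapped in number of peaks, at 61.0 ± 15.1 in the depleted and 52.3 ± 5.03 in the wild-type libraries (SD, n = 3 each). The difference of 8.67 peaks was 17.2 without NuMA-depleted replicate 3 and 2.67 without NuMA-depleted replicate 2. As a share of the library, the window held 0.172%, 0.159% and 0.202% of peaks in NuMA-depleted and 0.149%, 0.147% and 0.145% in wild-type libraries, which do not overlap. Such shares depend on the length of the list. With 21783 peaks from each library the groups overlapped again, with a difference of 3.67 peaks. Peaks covered 37.9, 50.01 and 25.5 kb of the window in NuMA-depleted and 32.8, 31.8 and 25.9 kb in wild-type libraries. Median width overlapped, at 504, 621 and 492 bp against 552, 479 and 483 bp, and so did median fold, at 6.68, 6.52 and 5.88 against 6.32, 6.70 and 6.30.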

How the data were processed

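The submitters' processing notes name hg19 as the build and, as tools, Bowtie2 2.4.1, Trim Galore and Picard. Peaks were called per sample; peak names carry macs2, and for its version and settings nothing is given in the sources used here. The deposited files give, per peak, a fold ratio over local background, −log10 p and −log10 q, and a score that follows −log10 q and was not used separately. The authors' lists hold peaks with q up to 0.01. Read totals are unknown. Pileup and background were recovered under a Poisson model, with fold taken as pileup plus 1 over background plus 1. A whole-number pileup within 0.01 in −log10 p was found for 100% of the peaks tried (3 to 5 per library, with p too small to compute, were not). Relative depth is the smallest background over the smallest peak width. Summits placed peaks in segments, cut from the landmarks with margins of 100 kb (CCAT1, POU5F1B) and 10 kb (MYC, PVT1). Where the CCAT1 and POU5F1B segments meet, the border was set midway between the landmarks, at 128.315 Mb. Bins were fitted with limma 3.58.1 (R 4.3.3) on log2 shares, pseudocount 0.5, mean of at least 5 peaks. The fit was also run on simulated Poisson counts with planted changes. Those counts had no added spread between libraries, so they do not show what the fit can detect in these lists. Other steps used Python 3.11.15, pandas 2.3.3 and scipy 1.17.1.

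Members and lists were chosen with earlier results of these data known. Regions named by rule were those within 10 kb of MYC, the strongest shared region of each segment, group-only regions, the widest region and, in the bin from 129 to 130 Mb, those in at least 2 NuMA-depleted and no wild-type library. No annotation of build hg19 was used here, so promoters of MYC partners and of cell type markers were not checked, and no sequence is printed. The alternatives changed the threshold (−log10 q of 5), the number of peaks per list, width and gap limits, placing, bins, merging and ranks, added a replicate block, or dropped 1 library at a time.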

Additional observations from a re-analysis of the deposited data

How the results depend on the processing

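No group difference here carries a test, so these values show only how far the descriptions move; read depth is unknown, and calls near the threshold depend on it. The difference in peaks of the window, 8.67, was positive under its 11 alternatives and lay between 2.67 and 17.2 with 1 library dropped. The groups overlapped except without NuMA-depleted replicate 3 (17.2) and with peaks as a share at the mean list length (10.8). The log2 difference in share at 129 to 130 Mb, 0.70, was positive under its 16 alternatives. It was 0.39 at equal numbers of peaks, 0.38 in the lower of the 2 bins moved by 500 kb, and 0.50 to 0.91 with 1 library dropped. With a replicate block it was 0.70 (SE 0.187). Deviations of same-numbered libraries had correlations from -0.077 to 0.092, against -0.115 to 0.101 for differently numbered ones. No pairing by number is seen in these values, and whether same-numbered libraries shared a culture or batch was not tested. Regions only in NuMA-depleted libraries, 1, numbered 0 at equal numbers of peaks, 2 with common width and gap limits, 8 when 2 of 3 libraries sufficed, and 1 to 6 with 1 library dropped. Regions only in wild-type libraries, 2, numbered 1 with a −log10 q of at least 5, 1 at equal numbers, and 2 to 3 with 1 library dropped. Regions in all 6 libraries, 29, numbered 17 at equal numbers and 29 to 35 with 1 library dropped. Shared regions whose own-list ranks separated the groups, 6, numbered 3 at equal numbers, 10 when ranked by pileup among shared regions, and 8 to 14 with 1 library dropped, highest without NuMA-depleted replicate 3. Leaving out a library loosens each of these counts by construction. Both ranks among shared regions were chosen after seeing the data.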
